A study of Caenorhabditis elegans with 15 samples.

Results

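The genes described here are 8 members of the Ras and MAP kinase pathway: sem-5, let-60, lin-45, ksr-1, ksr-2, mek-2, mpk-1 and lip-1. They were chosen by name, as every probe set whose single gene symbol in the platform annotation is one of the 8. This gave 14 of 22548 probe sets and 8 of 17118 genes on Affymetrix C. elegans expression arrays. By the RefSeq table of WBcel235, let-60, lin-45 and lip-1 lie on chromosome IV, mpk-1 on III, ksr-1 and sem-5 on X, and mek-2 and ksr-2 on I.

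The arrays measured RNA that came down with GLD-1, a STAR-family RNA-binding protein that represses translation in the germline. All samples were whole worms at the young adult stage, in 5 groups of 3 arrays. In the first set, extract of worms with the allele gld-1(q485) and the transgene ozIs2, which encodes gld-1::gfp::flag, was immunoprecipitated (IP) with anti-FLAG or with anti-MYC, for which the strain has no tag. In the second set, anti-FLAG IPs of that strain were set against anti-FLAG IPs of wild-type N2 worms, which have no FLAG tag and keep their own gld-1. The last group is total RNA of the tagged strain without IP (input). The promoter of the transgene is not given in the sources used here. Strategy 1 compares FLAG with MYC IPs within set 1, and strategy 2 compares tagged with N2 worms within set 2, both as differences of log2 means. The strategies have no array in common. The labels do not say whether replicates came from separate cultures, so p-values measure the spread between these samples only.

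In C. elegans, Ras signalling runs from receptor tyrosine kinases through the Grb2-like adaptor SEM-5 to the GTPase LET-60 Ras. LET-60 turns on a kinase chain of LIN-45 (Raf), MEK-2 (MEK) and MPK-1 (ERK), with the KSR proteins as scaffolds, and the phosphatase LIP-1 turns MPK-1 off. In the vulva the pathway specifies cell fates. In the germline MPK-1 is needed for germ cells to leave pachytene, for oocyte growth and for oocyte maturation, and GLD-1 is abundant in pachytene germ cells.

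Values are the deposited log2 signals, and a difference of 1 is a 2-fold difference. A probe set was called when its limma p-value, adjusted over all 22548 probe sets, was under 0.05. The transcripts of ribosomal protein genes, used as a measure of background RNA, had array medians of 12.84 to 13.09 in input and 5.535 to 9.672 on the IP arrays. The tagged minus control difference of their group means was 0.0403 in strategy 1 and 0.18 in strategy 2. Between 194 and 2170 probe sets reached log2 5 on an IP array, against 7632 to 9352 on an input array, and each array had its own lowest value, 2.213 to 2.53. The FLAG IP of set 1, replicate 1, was the dimmest tagged IP, with 550 probe sets at log2 5 and a ribosomal protein median of 5.535. Of 22 marker genes of germline, sperm, muscle, intestine, neurons and hypodermis, 20 stood at log2 5 or more in input; the sperm genes spe-9 (2.43) and spe-38 (2.46) did not. As a check of the IP, the RNA of gld-1 itself (174247_at) rose by 5.48 ± 0.575 (SE) in strategy 1 and 5.55 ± 0.575 in strategy 2, while its other probe set, 193805_at, gave 0.35 (adjusted p = 0.322) and 0.51 (adjusted p = 0.144). Strategy 2 compares strains that differ in gld-1, and N2 had no input array. In that strategy a strain difference in RNA level and recovery by the IP cannot be told apart. Precision is limited by having 3 arrays a group.

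The transcripts of lin-45, the Raf kinase gene, and mpk-1, the ERK gene, were higher in the tagged IP in both strategies, by about 3.2 to 4.5 on the log2 scale for the brighter probe set of each. For let-60, the Ras gene itself, the brighter probe set stood 1.36 and 1.67 higher and passed the threshold in neither strategy. The adaptor gene sem-5 and the scaffold genes ksr-1 and ksr-2 gave changes between -0.07 and 0.25. The probe sets of mek-2 and lip-1 stayed near the lowest array values in input as well as in the IPs. Of the 14 member probe sets 3 were called higher in strategy 1 and 4 in strategy 2, where 2.41% and 5.47% of all probe sets were called higher. The strategy 2 count includes ksr-2 181445_s_at, whose change of 0.25 lay near the lowest array values and lost its call under 9 of 15 alternatives. For probe sets at log2 5 or more in input the shares were 6.27% and 13.9%, and 3 of the 8 member probe sets at that level were called higher in each strategy. The median change of the 14 was 0.0944 and 0.127, against -0.0265 and -0.0322 over all probe sets. The member median was 0.01 and 0.00 after quantile normalization, 0.04 and 0.03 after cyclic loess, and 0.05 and -0.05 with arrays centred on ribosomal protein genes, where the median of all probe sets was -0.0671 and -0.212.

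**Figure D1:**
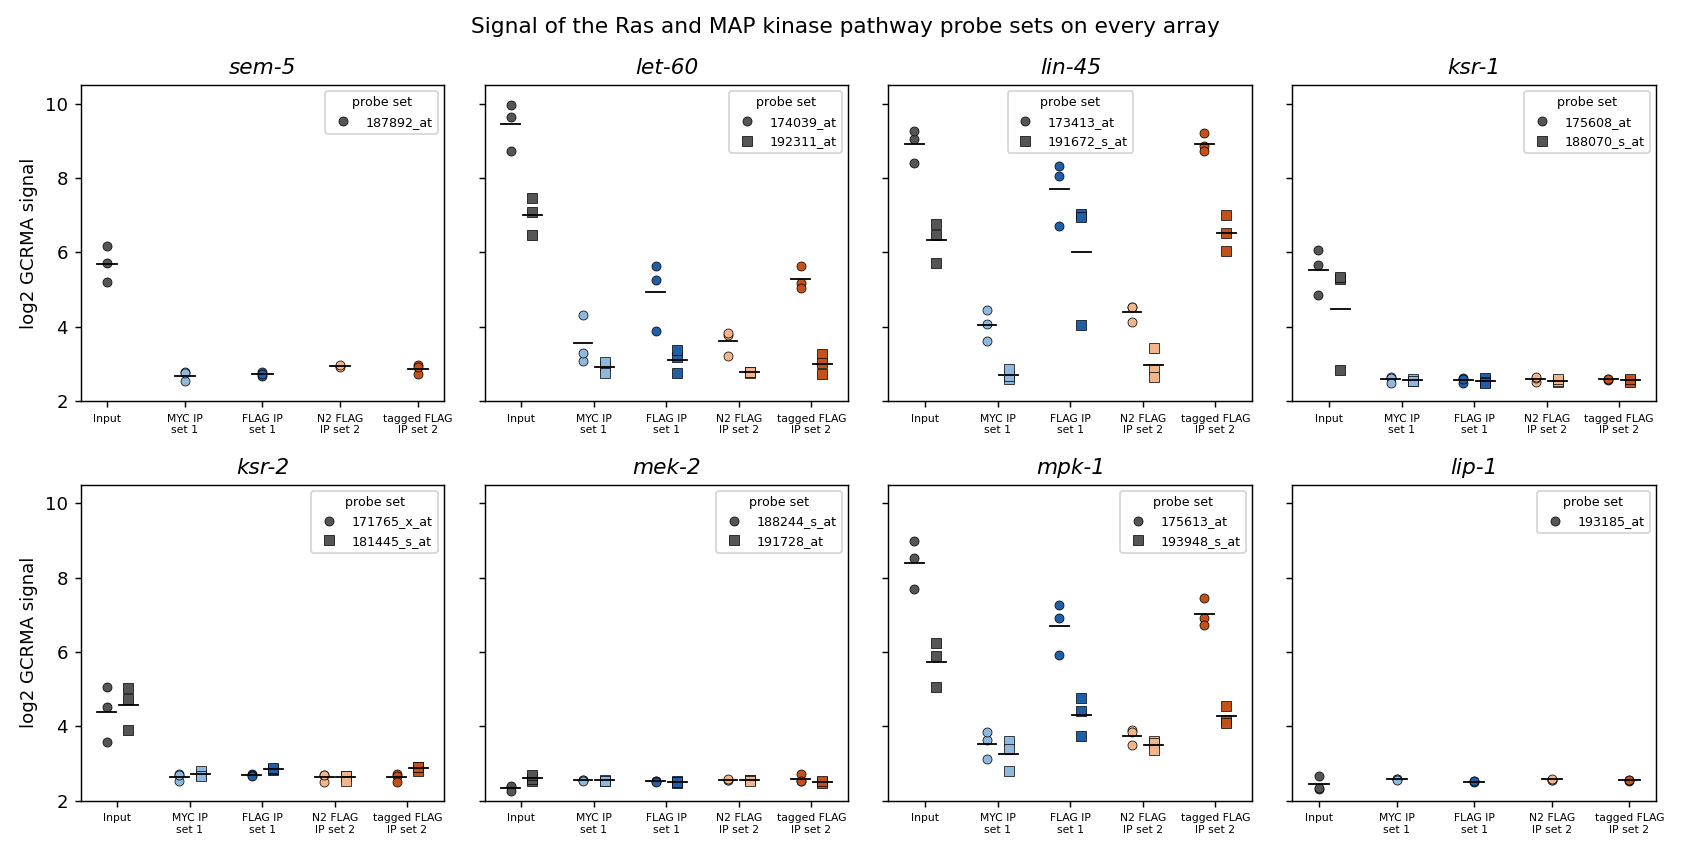
Log2 signal (vertical axis) of each probe set of the 8 genes on the 3 arrays of each of the 5 groups (horizontal axis). Each point is an array, circles and squares are the first and second probe set of a gene, and lines are group means. The tagged FLAG IPs of lin-45 and mpk-1 stand above their controls, those of lin-45 in set 2 at the height of input, while sem-5, ksr-1 and ksr-2 drop close to the lowest values in every IP.

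sem-5 encodes the adaptor that couples receptor tyrosine kinases to Ras. Its single probe set, 187892_at, read 5.71, 5.19 and 6.17 in input, a level per worm extract in which fewer cells of a type and less RNA per cell cannot be told apart. It read 2.53 to 2.77 in the MYC IPs, 2.68 to 2.77 in the FLAG IPs of set 1, 2.90 to 2.96 in the N2 IPs and 2.72 to 2.96 in the tagged IPs of set 2. The groups overlap in each set, and the changes were 0.04 ± 0.0755 (95% interval -0.13 to 0.22) and -0.07 ± 0.0755 (-0.24 to 0.10), with adjusted p = 0.726 and 0.537. Every IP value lay at most 0.49 above the lowest value of its array, where differences are compressed. The intervals therefore do not bound how much sem-5 RNA came down with GLD-1.

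let-60 encodes the Ras GTPase. On 174039_at the MYC IPs read 3.08, 3.28 and 4.31 and the FLAG IPs of set 1 read 3.87, 5.26 and 5.63, so that FLAG replicate 1 fell below MYC replicate 3. In set 2 the N2 IPs read 3.76, 3.22 and 3.83 and the tagged IPs read 5.63, 5.16 and 5.04, with no overlap. The changes were 1.36 ± 0.477 (2.57-fold, adjusted p = 0.267, 95% interval 0.28 to 2.44) and 1.67 ± 0.477 (3.19-fold, adjusted p = 0.0908, 0.59 to 2.76). Without FLAG replicate 1 the strategy 1 change was 1.89 and was called (adjusted p = 0.0173). A test on the 1627 probe sets at log2 5 or more on at least 3 IP arrays called the strategy 2 change (adjusted p = 0.0181). 174039_at passed that filter through tagged arrays only, so the filter favours a rise and this call adds no support. The strategy 2 change was also called with the spread of its 6 arrays (0.019). Array weights gave a call in both strategies. In strategy 1, however, they called every member probe set, higher or lower, also dim ones such as mek-2 191728_at (-0.071, adjusted p = 5.78e-07). After quantile normalization the changes were 0.31 and -0.10, and after cyclic loess 0.10 and 0.01, none of them called.

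Input of 174039_at was high, at 9.65, 8.71 and 9.97 (mean 9.45 ± 0.653), and every IP array was below the lowest input array. The tagged IP of set 2 minus input was -4.17, above 41.8% of the 8566 probe sets at log2 5 or more in input, and the FLAG IP of set 1 minus input was -4.53, above 33.4%. In the N2 and MYC IPs the same difference was -5.84 and -5.89, above 19.9% and 14.3%. IP and input arrays were loaded with different RNA amounts, so these differences were not tested, and a difference from input is read only by its place among other probe sets. That place also depends on input level, because a dim probe set can fall only to the lowest array value. ksr-1 175608_at, with an input of 5.52 and IP values near the lowest, stood above 87.8% in the MYC IPs and 75.2% in the tagged IPs of set 2. The levels of the tagged IP of set 2 and the FLAG IP of set 1, 5.28 ± 0.313 and 4.92 ± 0.931, overlap, as do those of the N2 and MYC IPs, 3.60 ± 0.334 and 3.56 ± 0.66. The other let-60 probe set, 192311_at, with an input of 7.0 ± 0.505, gave changes of 0.19 ± 0.166 (adjusted p = 0.489) and 0.23 ± 0.166 (adjusted p = 0.326), with overlapping arrays in both sets and a change of -0.14 in strategy 1 after quantile normalization.

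lin-45 encodes the Raf kinase, which Ras activates and which phosphorylates MEK-2. On its brighter probe set, 173413_at, the 3 MYC IPs read 3.60, 4.08 and 4.45 and the 3 FLAG IPs of set 1 read 6.71, 8.04 and 8.33. The N2 IPs read 4.13, 4.52 and 4.53 and the tagged IPs of set 2 read 9.20, 8.86 and 8.71. Every tagged array was above every control array of its set, by at least 2.26 in set 1 and 4.18 in set 2. The change was 3.65 ± 0.396 (SE), or 12.6-fold, in strategy 1 (adjusted p = 0.00272) and 4.53 ± 0.396, or 23.2-fold, in strategy 2 (adjusted p = 0.000494). It was larger than that of 99.1% and 99.0% of all probe sets. With the spread taken from the 6 arrays of strategy 1 alone the adjusted p was 0.178, and after cyclic loess the changes were 1.18 (adjusted p = 0.337) and 1.13 (adjusted p = 0.278). With arrays centred on ribosomal protein genes the strategy 1 change was 3.61 (adjusted p = 0.0802).

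Input read 9.05, 8.39 and 9.26 for 173413_at, a mean of 8.9 ± 0.455 (SD, n = 3). By signal as deposited, and not by amount of RNA, the order of the groups was tagged IP of set 2 (8.93 ± 0.248) and input, whose arrays overlap, then FLAG IP of set 1 (7.70 ± 0.864), and below them the N2 (4.39 ± 0.227) and MYC IPs (4.04 ± 0.425), which overlap each other. The tagged IP of set 2 minus input was 0.03, above 98.9% of the probe sets at log2 5 or more in input, and the FLAG IP of set 1 minus input was -1.20, above 98.3% of them. In the MYC and N2 IPs the same difference was -4.85 and -4.51, above 41.7% and 52.5%.

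The other lin-45 probe set, 191672_s_at, whose suffix marks probes that can match more than 1 transcript, gave 2.59, 2.66 and 2.86 in the MYC IPs and 4.04, 7.02 and 6.96 in the FLAG IPs of set 1. In set 2 it gave 3.43, 2.86 and 2.63 in the N2 IPs and 7.0, 6.03 and 6.53 in the tagged IPs. The groups did not overlap in either set, and the FLAG IP of replicate 1 was again the lowest tagged array. The changes were 3.31 ± 0.708 (adjusted p = 0.0496) and 3.55 ± 0.708 (adjusted p = 0.0196), 9.89-fold and 11.7-fold, with MYC arrays only 0.06 to 0.37 above the lowest array value. The strategy 1 call was lost when any single array of set 1 but FLAG replicate 1 was left out (adjusted p = 0.111 to 0.206), and the strategy 2 call without N2 replicates 2 or 3 or tagged replicates 1 or 3 (0.0605 to 0.0908). The strategy 1 call was also lost with the spread of its 6 arrays (adjusted p = 0.492) and with arrays centred on medians (0.0541), and both calls with ribosomal protein centring (0.162 and 0.0798). After cyclic loess the changes were 1.90 and 1.67, and both were called.

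ksr-1 and ksr-2 encode scaffold proteins of the kinase suppressor of Ras family, with ksr-2 needed for MPK-1 activation in the germline. The ksr-1 probe set 175608_at read 5.65, 4.84 and 6.06 in input and 2.48 to 2.63 on all 12 IP arrays, with changes of -0.02 ± 0.0496 (adjusted p = 0.853) and -0.01 ± 0.0496 (adjusted p = 0.954). The second one, 188070_s_at, lay within 0.1 of the lowest value on all 12 IP arrays, and its input values of 5.27, 2.82 and 5.34 differed between arrays. Both ksr-1 probe sets therefore showed no recovery in the tagged IP that these arrays could detect.

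ksr-2 gave 4.74, 3.91 and 5.04 in input on 181445_s_at. On that probe set the N2 IPs read 2.53 to 2.67 and the tagged IPs of set 2 read 2.79 to 2.91, a change of 0.25 ± 0.0518 (1.19-fold, adjusted p = 0.0250), while strategy 1 gave 0.14 ± 0.0518 (adjusted p = 0.283). The strategy 2 call was lost under 9 of 15 alternatives, among them leaving out N2 replicates 2 or 3 or tagged replicates 2 or 3 (adjusted p = 0.0509 to 0.0962). With arrays centred on ribosomal protein genes the change was 0.0668. The other ksr-2 probe set, 171765_x_at, had changes of 0.04 ± 0.0726 and -0.01 ± 0.0726 (adjusted p = 0.759 and 0.970). By their suffixes both ksr-2 probe sets can match more than 1 transcript.

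mpk-1 encodes the ERK MAP kinase at the end of the chain, which phosphorylates the pathway's targets. On 175613_at the MYC IPs read 3.11, 3.62 and 3.86 and the FLAG IPs of set 1 read 5.91, 6.92 and 7.27. The N2 IPs read 3.89, 3.84 and 3.49 and the tagged IPs of set 2 read 7.46, 6.91 and 6.72. The groups were apart by at least 2.05 in set 1 and 2.83 in set 2. The changes, 3.17 ± 0.356 (9.01-fold, adjusted p = 0.00306) and 3.29 ± 0.356 (9.80-fold, adjusted p = 0.00115), were above those of 98.7% and 97.8% of probe sets. The strategy 1 call ended with the spread of its 6 arrays alone (adjusted p = 0.175), and after cyclic loess the changes were 1.31 (adjusted p = 0.0543) and 0.73 (adjusted p = 0.283). After quantile normalization the strategy 2 change was 0.98 (adjusted p = 0.134), and with arrays centred on ribosomal protein genes the changes were 3.13 (0.222) and 3.11 (0.143).

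Input of 175613_at was 8.53, 7.69 and 8.98, a mean of 8.40 ± 0.656 (SD, n = 3), and was above every IP array. Below it came the tagged IP of set 2 (7.03 ± 0.384) and the FLAG IP of set 1 (6.70 ± 0.704), which overlap, and then the N2 (3.74 ± 0.218) and MYC IPs (3.53 ± 0.386), which overlap too. The IP minus input difference was -1.37 in the tagged IP of set 2, above 95.5% of probe sets at log2 5 or more in input, and -1.70 in the FLAG IP of set 1, above 96.8%. In the N2 and MYC IPs it was above 48.6% and 41.2%.

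The second mpk-1 probe set, 193948_s_at, which carries the same suffix, gave smaller changes. Its levels were 2.81, 3.61 and 3.38 in the MYC IPs, 3.73, 4.76 and 4.42 in the FLAG IPs, 3.60, 3.54 and 3.36 in the N2 IPs and 4.54, 4.16 and 4.10 in the tagged IPs of set 2. The tagged arrays were all higher, by as little as 0.125 in set 1 and 0.493 in set 2. The changes were 1.04 ± 0.279 (adjusted p = 0.126) and 0.77 ± 0.279 (adjusted p = 0.144). Their 95% intervals, 0.41 to 1.67 and 0.13 to 1.40, did not reach those of 175613_at, 2.37 to 3.98 and 2.49 to 4.10. After quantile normalization the strategy 2 change was -0.55 and after cyclic loess -0.35. Without FLAG replicate 1 the strategy 1 change was 1.33 and was called (adjusted p = 0.0101). Input of 193948_s_at was 5.73 ± 0.608. Its control IPs were also high against input, with differences of -2.46 (MYC) and -2.23 (N2) that lay above 97.0% and 99.0% of probe sets at log2 5 or more in input, while those of its tagged IPs, -1.42 and -1.46, lay above 97.6% and 95.2%. At so low an input such places are high even near the lowest array value. For sem-5 187892_at, with an input of 5.69, they were 86.1% (MYC) and 91.3% (N2). By these estimates tagged and control IPs were less far apart on 193948_s_at than on 175613_at. The 2 probe sets also differ in brightness, with inputs of 5.73 and 8.40, and differences of dim probe sets are compressed. The difference between them was not tested.

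**Figure D2:**
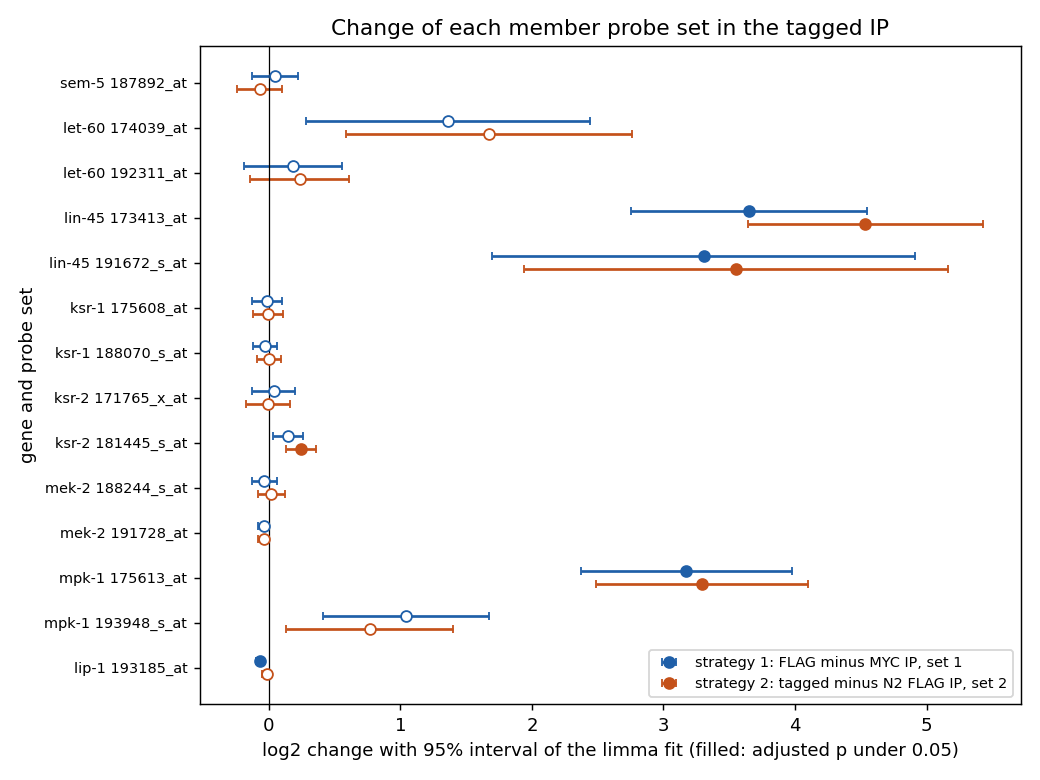
Log2 change of each member probe set (horizontal axis, in log2 units) with its 95% interval from the limma fit of the 12 IP arrays, for strategy 1 (blue) and strategy 2 (orange). Filled points have an adjusted p under 0.05. The 2 lin-45 probe sets and mpk-1 175613_at lie above 3, let-60 174039_at and mpk-1 193948_s_at between 0.77 and 1.67, and all others within 0.25 of 0.

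mek-2, the MEK gene, and lip-1, the gene of the phosphatase that inactivates MPK-1, could not be followed. The mek-2 probe sets read 2.27 to 2.39 (188244_s_at) and 2.53 to 2.70 (191728_at) in input, and lip-1 193185_at read 2.31, 2.35 and 2.67. On the IP arrays 191728_at and 193185_at lay within 0.1 of the lowest value on all 12, and 188244_s_at on 11 of 12. The changes of mek-2 were -0.04 to 0.02. In strategy 1 the lip-1 probe set passed the threshold downwards, with a change of -0.07 ± 0.0146 (adjusted p = 0.0469), where 0.0577% of all probe sets were called lower (0.173% in strategy 2). It had 2.56 to 2.59 in the MYC and 2.50 to 2.52 in the FLAG IPs, whose lowest array values were 2.494 to 2.53 and 2.455 to 2.517. That call was lost under 12 of 15 alternatives, among them leaving out MYC replicates 1 or 2 or FLAG replicates 2 or 3 (adjusted p = 0.111 to 0.224), and strategy 2 gave -0.01 (adjusted p = 0.489). These values give no measure of how much mek-2 or lip-1 RNA came down with GLD-1.

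**Figure D3:**
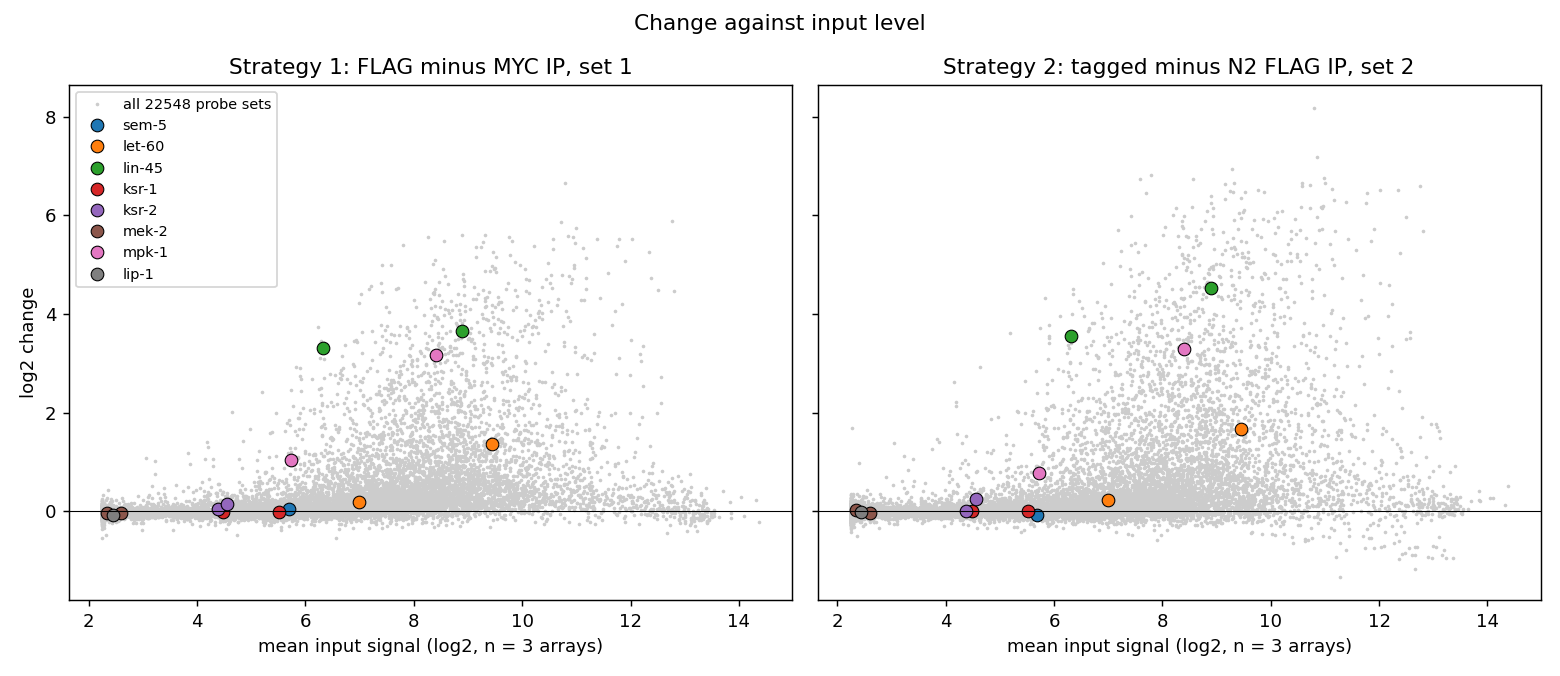
Log2 change in strategy 1 (left) and strategy 2 (right) against mean input signal (log2, n = 3 arrays), for all 22548 probe sets (grey) and those of the 8 genes (coloured). lin-45 and mpk-1 175613_at stand among the higher changes at their input level, let-60 174039_at lies lower at an input of 9.45, and sem-5, ksr-1, ksr-2, mek-2 and lip-1 lie at 0 within 0.25.

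The share of probe sets called rose with input level. Of the 3346 at log2 8 or more in input, 10.4% were called higher in strategy 1 and 20.1% in strategy 2, with median changes of 0.50 and 0.62. The member probe sets at that level were 3, of let-60, lin-45 and mpk-1, and 2 of them were called in each strategy. All tagged arrays stood above all control arrays for 5 and 6 of the 14 member probe sets, against 6.14% and 14.9% of all probe sets, and for 4 and 5 of the 8 at log2 5 or more in input, against 15.2% and 37.0%. The 5 and 6 include ksr-2 181445_s_at, near the lowest array values, with gaps of 0.0253 and 0.125. The reverse order, with all control arrays above all tagged arrays, was seen only for probe sets of mek-2 and lip-1 near the lowest values. The share of all probe sets with that order was not counted, so nothing about the members is read from it.

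For no member did the difference between the strategies pass the threshold. In the limma test of strategy 1 minus strategy 2 the adjusted p was 0.997 for all 14 member probe sets, with 0 of 22548 probe sets called (0.0%) and 355 at an unadjusted p under 0.05. The largest difference was that of lin-45 173413_at, -0.88 ± 0.56 (95% interval -2.15 to 0.39), and that of mpk-1 175613_at was -0.12 ± 0.503 (-1.26 to 1.02).

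**Figure D4:**
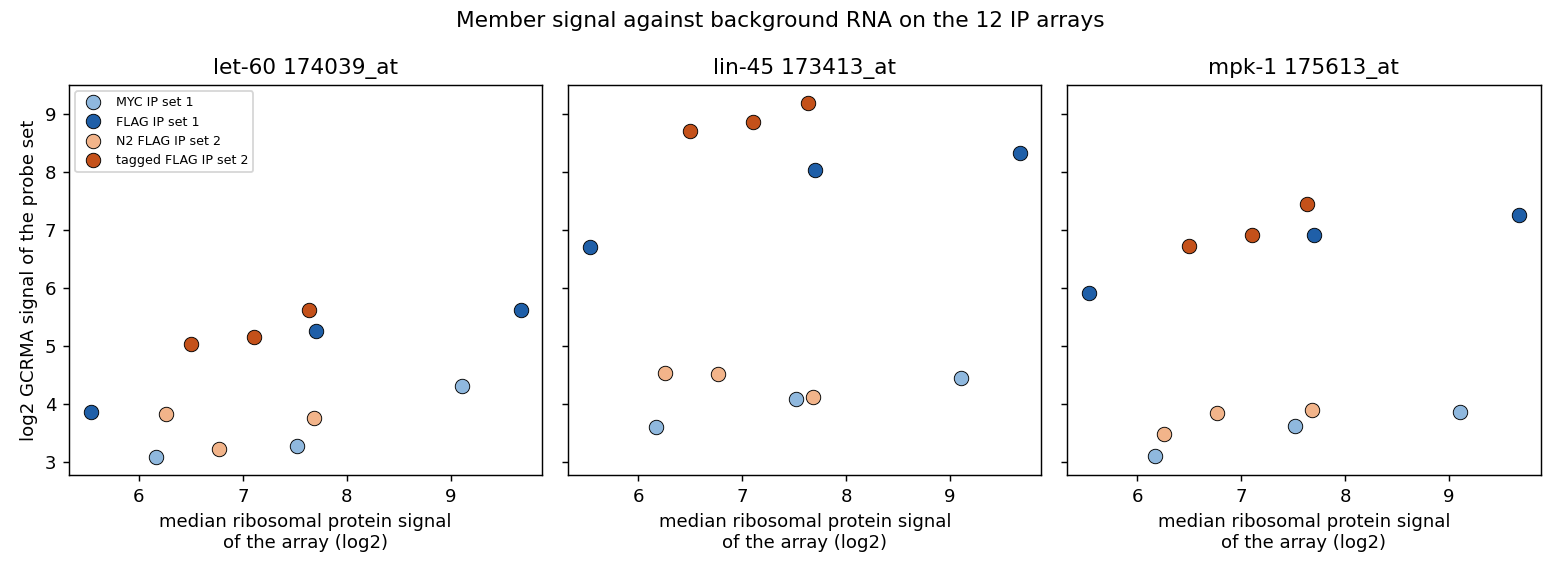
Log2 signal of let-60 174039_at, lin-45 173413_at and mpk-1 175613_at (vertical axis) against the median log2 signal of ribosomal protein genes (horizontal axis) on the 12 IP arrays, coloured by group. Within each group of set 1 the arrays with more background RNA also gave more signal of each gene, and the tagged arrays of lin-45 and mpk-1 stand above the control arrays across the whole range.

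Within each group of set 1, let-60 174039_at, lin-45 173413_at and mpk-1 175613_at had the same order of arrays as background RNA. The dim probe sets need not have it, and sem-5 read 2.77, 2.53 and 2.74 in MYC replicates 1, 2 and 3. FLAG replicates 1, 2 and 3 had ribosomal protein medians of 5.535, 7.705 and 9.672 beside lin-45 values of 6.71, 8.04 and 8.33, and MYC replicates 1, 2 and 3 had 6.168, 7.516 and 9.107 beside 3.60, 4.08 and 4.45. FLAG replicate 1, with the least background RNA of these arrays, was above all MYC arrays for lin-45 and mpk-1 but not for let-60 174039_at. In set 2 the medians were 6.256 to 7.681 in the N2 IPs and 6.497 to 7.638 in the tagged IPs. The tagged IPs of set 2, with medians of 7.638, 7.109 and 6.497, read 9.20, 8.86 and 8.71 for lin-45, and let-60 174039_at and mpk-1 175613_at had the same order. The N2 IPs did not follow it for lin-45, with 4.13, 4.52 and 4.53 beside medians of 7.681, 6.767 and 6.256. The part of background RNA in the let-60, lin-45 and mpk-1 values was not tested.

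Of 54 other genes of Ras signalling and MAP kinase cascades, in 5 lists, 51 had a probe set of their own and 35 stood at log2 5 or more in input. In strategy 1 4 of the 51 (7.84%) and in strategy 2 9 (17.6%) were called higher, the 4 among the 9, and none was called lower. Over all probe sets those shares were 2.41% and 5.47%, and at log2 5 or more in input 6.27% and 13.9%. All 9 called genes were among the 35 at that level, so the shares of the 51 are not matched to the last 2. The 51 were also counted by gene, with the brightest probe set of each, and the background by probe set.

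Of 9 genes for ligands, receptors and other inputs to Ras, none was called in either strategy, and the list medians were -0.01 and -0.04 (-0.05 to 0.01 and -0.22 to 0.00 under other scalings). The EGF-like ligand gene lin-3 gave 0.31 (adjusted p = 0.322) and 0.13 (adjusted p = 0.584), and the receptor gene let-23, at 2.96 in input, 0.00 and -0.06. The largest values were those of ptp-2, an SHP2-like phosphatase gene, with 0.90 (adjusted p = 0.29) and 1.24 (adjusted p = 0.0691), which turned to -0.52 and -0.78 after quantile normalization and to -0.50 and -0.62 after cyclic loess.

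Among 12 regulators of Ras and Raf 2 were higher in strategy 1 and 3 in strategy 2, while the list medians were 0.08 and -0.01. The largest was rap-1, the gene of a Ras-related GTPase, with 3.44 ± 0.58 (adjusted p = 0.0174) and 4.75 ± 0.58 (adjusted p = 0.00205). Its strategy 1 call ended without MYC replicates 1 or 2 or FLAG replicates 2 or 3 (0.083 to 0.0884). Cyclic loess brought the changes to 0.82 and 1.14 and ended both calls, and the second rap-1 probe set, 190315_at, gave 2.68 (adjusted p = 0.111) and 3.95 (adjusted p = 0.0108). ark-1, which encodes an Ack-related kinase that dampens EGF receptor signalling, gave 1.60 (adjusted p = 0.0364) and 2.01 (adjusted p = 0.00675), and its strategy 1 call ended without any array of set 1 but FLAG replicate 1 (0.0869 to 0.157). The second ark-1 probe set, 194031_at, gave 1.08 (adjusted p = 0.21) and 1.52 (adjusted p = 0.0343). sur-6, the gene of a PP2A regulatory subunit, was called in strategy 2 (2.55, adjusted p = 0.0231; 2.2 in strategy 1, adjusted p = 0.0798), a call that ended without N2 replicates 2 or 3 or tagged replicates 1 or 2 (0.0662 to 0.105). Its second probe set, 189782_s_at, gave 1.01 and 0.64 and was not called.

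Germline regulators of MPK-1, with its substrate gene nos-3, formed a list of 7 measured genes with medians of 1.51 and 1.89 (0.41 and 0.07 after quantile normalization, 0.24 and 0.15 after cyclic loess). vab-1, an Eph receptor gene that restrains oocyte maturation, was higher in both strategies (2.48 ± 0.431, adjusted p = 0.0200; 2.54 ± 0.431, adjusted p = 0.00901), but the strategy 2 change was -0.00597 after quantile normalization and -0.26 after cyclic loess, and the strategy 1 call ended without MYC replicates 1 or 2 or FLAG replicates 2 or 3 (0.0827 to 0.101). Its second probe set, 193384_at, gave 1.17 (adjusted p = 0.143) and 1.46 (adjusted p = 0.0329). gla-3, which encodes a zinc finger protein that limits MPK-1 activity in the germline, was called in strategy 2 only (3.13, adjusted p = 0.0322; 2.25 in strategy 1, adjusted p = 0.196), as was the PUF protein gene puf-8 (2.34, adjusted p = 0.0183; 1.81 in strategy 1, adjusted p = 0.101). The gla-3 call ended without any one array of set 2 (0.0663 to 0.135) and the puf-8 call without any but tagged replicate 3 (0.0569 to 0.0847). Both were called in strategy 1 without FLAG replicate 1, at 3.17 (adjusted p = 0.00105) and 2.34 (adjusted p = 0.00405). nos-3 gave 1.51 (adjusted p = 0.305) and 1.89 (adjusted p = 0.106).

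Of 7 nuclear outputs of the pathway in the vulva, lin-31, a forkhead factor gene, was called in strategy 2 (2.02 ± 0.287, adjusted p = 0.00396; 1.11 in strategy 1, adjusted p = 0.11, and 1.43 without FLAG replicate 1, adjusted p = 0.00471). The list medians were 0.06 and 0.31. The ETS factor gene lin-1 gave 0.04 and 0.31 and was not called.

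The 16 measured genes of other MAP kinase cascades had medians near 0 (0.00 and 0.00). The kinase gene mek-1 was higher in both strategies (2.15 ± 0.454, adjusted p = 0.0469; 2.99 ± 0.454, adjusted p = 0.00534), and its strategy 1 call ended without any array of set 1 but FLAG replicate 1 (0.0855 to 0.196). mom-4, which encodes a TAK1-like kinase of Wnt signalling, was called in strategy 2 (2.75, adjusted p = 0.00575; 1.81 in strategy 1, adjusted p = 0.0741, and 2.27 without FLAG replicate 1, adjusted p = 0.00383). Its second probe set, 192626_s_at, was called in both (1.79 and 1.97, adjusted p = 0.0373 and 0.0130). Quantile normalization ended the strategy 2 calls of sur-6 (1.33), puf-8 (0.78), lin-31 (1.03) and vab-1, and the strategy 1 calls of mek-1 (1.03), rap-1 (1.71) and vab-1 (0.68). Cyclic loess ended the strategy 2 call of lin-31 (0.90) and both vab-1 calls as well as those of rap-1. With arrays centred on ribosomal protein genes all 4 strategy 1 calls of these lists ended, and in strategy 2 the call of rap-1 alone of the 9 held, while the changes stayed close to those above. mek-1 then gave 2.11 and 2.81, rap-1 3.40 and 4.57, and mom-4 2.57 in strategy 2.

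**Figure D5:**
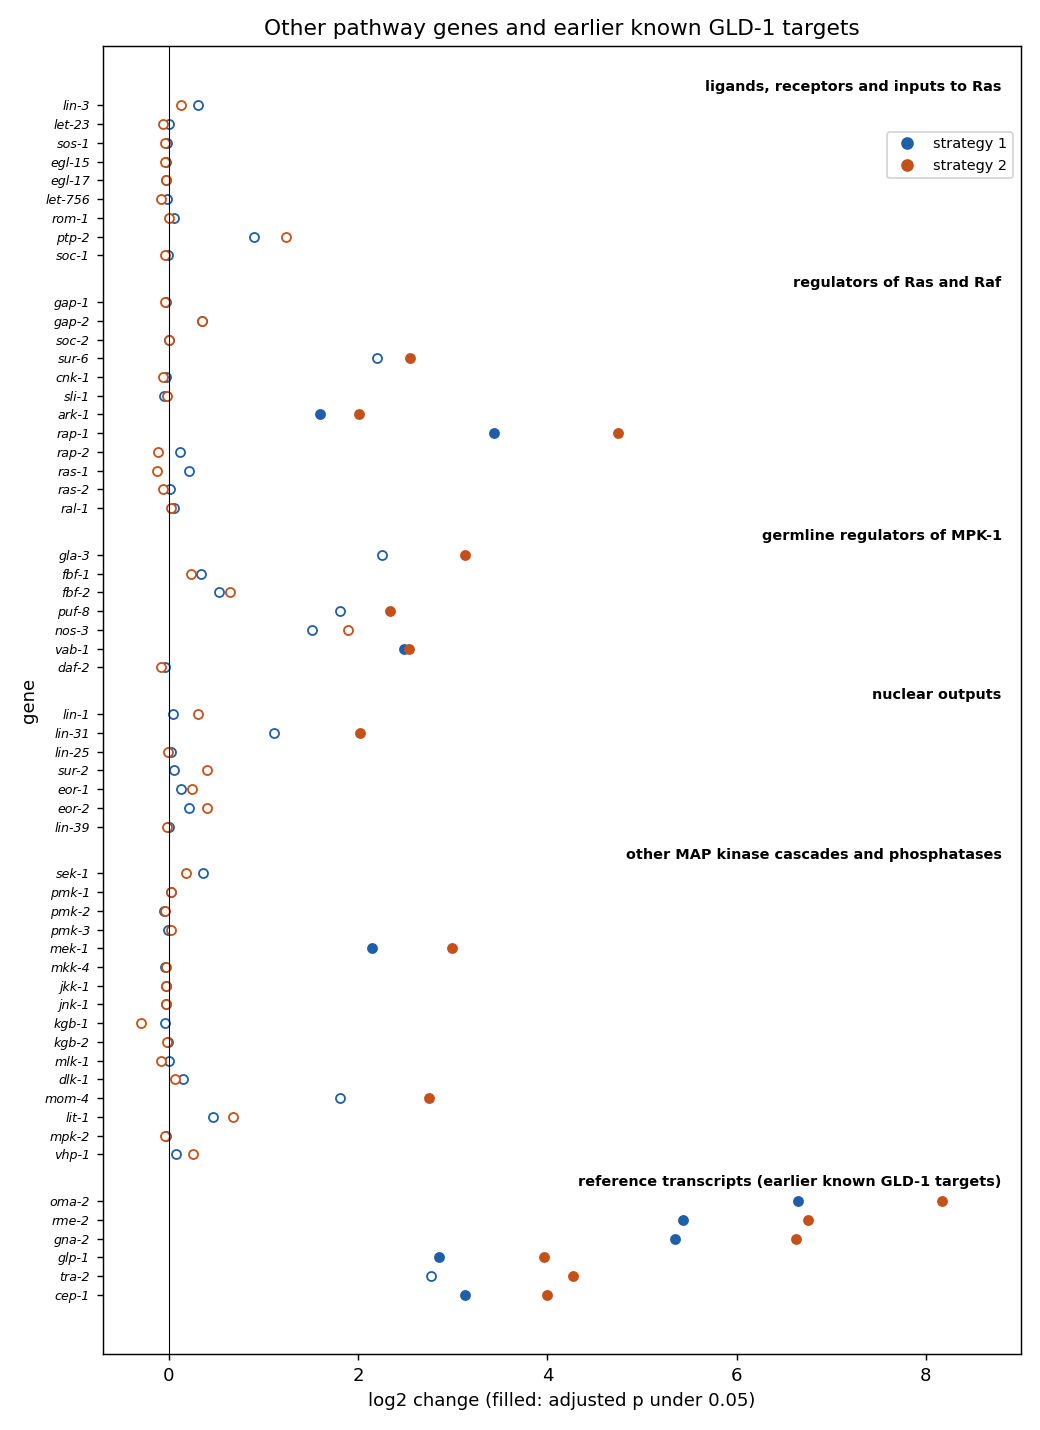
Log2 change (horizontal axis, in log2 units) of 51 other pathway genes and of 6 earlier known GLD-1 targets, one row per gene, in strategy 1 (blue) and strategy 2 (orange). Filled points have an adjusted p under 0.05. In the pathway lists other than the germline regulators most genes lie below 1 and a few stand apart, rap-1 the highest at 3.44 and 4.75, under the 5.35 to 8.17 of oma-2, rme-2 and gna-2.

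Of 6 transcripts known earlier as GLD-1 targets, 5 were called in strategy 1 and 6 in strategy 2, with median changes of 4.24 and 5.45. The oocyte maturation gene oma-2 changed by 6.65 and 8.17, the yolk receptor gene rme-2 by 5.43 and 6.75, and gna-2, which acts in making chitin for the eggshell, by 5.35 and 6.63. The p53-like gene cep-1 changed by 3.13 and 4.0, and its strategy 1 call ended without any array of set 1 but FLAG replicate 1 (adjusted p = 0.0604 to 0.135). That of glp-1, the Notch receptor gene, ended without the same arrays (0.0652 to 0.148), so that the count of 5 rested on them. These counts and medians use the brightest probe set of each gene. The second probe set of oma-2, 173110_at, was called in both strategies (5.36 and 6.49). That of cep-1, 177604_at, was called in neither (1.13, adjusted p = 0.322, and 1.3, adjusted p = 0.144). Neither was that of tra-2, 188199_s_at (-0.03 and -0.04), which stood at 2.24 in input. The lin-45 changes of 3.65 and 4.53 and the mpk-1 changes of 3.17 and 3.29 were below the medians of these 6 transcripts, and the differences between genes were not tested.

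Likeness of signal was measured over all 15 arrays by the mean absolute difference in log2 signal. It served to find the nearest genes to the 2 members with the largest mean change over both strategies. For lin-45 173413_at they were ZK973.9 (0.349 per array) and F55G1.6 (0.353 per array), with changes of 3.86 and 4.51, and 4.0 and 4.89. For mpk-1 175613_at they were lrr-1 (0.245 per array; 3.55 and 3.87) and ZK1307.9 (0.281 per array; 3.18 and 3.88). All 4 were called in both strategies. The 15 arrays include the IP arrays behind both strategies, so like changes and calls follow from the choice and add no support.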

How the data were processed

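The 15 arrays are Affymetrix C. elegans expression arrays in 5 groups of 3, grouped by sample title and strain. Per the submitters' processing notes the authors used GCRMA, whose version is not stated, and the deposited values are log2 signals per probe set, normalized between arrays. The arrays still differ in distribution, with 194 to 2170 probe sets at log2 5 or more on an IP array. GCRMA pulls dim probe sets to a common lowest value, so differences there are compressed. Per the labels' protocols, total RNA of mouse brain was added to each IP, and input and IP arrays took different RNA amounts, so input was not tested against IP. The 77 control probe sets among 22625 were not tested. Gene symbols came from the platform annotation: 20766 probe sets had 1 symbol, 887 several and 895 none, and only single symbols were used. There were 0 columns without a sample.

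One model was fitted to the group means of the 12 IP arrays by limma 3.58.1 under R 4.3.3, with eBayes and two-sided tests, 8 residual degrees of freedom, p-values adjusted by Benjamini-Hochberg over 22548 probe sets and a threshold of 0.05. Every adjusted p in the text is from limma. No exact test of 3 against 3 arrays can give a p below 0.1, so none was run. Alternatives were a replicate block, other arrays behind the spread, a filter on dim probe sets, quantile or cyclic loess normalization, 2 centrings, a variance trend, array weights and leaving out each array.

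The members and lists were chosen with earlier results of these data known. Named were all members and, of each other list, up to 4 called genes by largest mean change, or the highest gene where none was called. A gene outside the members is given by its brightest probe set. lin-3, let-23, lin-1, glp-1, tra-2 and nos-3 fall outside this rule and were named after their values were seen, as were second probe sets. No sequence or genome position of a probe set was used here.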

Additional observations from a re-analysis of the deposited data

How the results depend on the processing

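Of 428 recomputed member changes 326 kept their direction and side of the threshold, 45 lost a call, 21 gained one and 36 changed sign. For the other named genes, recomputed under the same alternatives chosen after seeing the data, these were 385, 82, 35 and 6 of 508. The strategy 1 count of 3 member probe sets called higher was 0 with the spread of its 6 arrays alone, 1 after cyclic loess, 0 with ribosomal protein centring, 9 with fitted array weights and 2 to 5 with one array left out (5 without FLAG replicate 1). The array weights called every member probe set in strategy 1, higher or lower, also those near the lowest array value. The strategy 2 count of 4 was 2 after quantile normalization, 1 after cyclic loess, 1 with ribosomal protein centring and 2 to 4 with one array left out. The count of differences between strategies, 0, was 1 with array weights, and its fit to 6 arrays was not run because it needs both sets. With the replicate block the counts were 3, 6 and 0: in strategy 1 lin-45 191672_s_at lost its call (adjusted p = 0.0756) and mpk-1 193948_s_at gained one (0.00651), and in strategy 2 mpk-1 193948_s_at (0.00768) and let-60 174039_at (0.03) gained one. No label says what the replicate numbers pair. Same-numbered arrays of set 1 had deviations correlated at 0.803, -0.0700 and 0.873, and those of set 2 at 0.511, 0.0366 and 0.520. These values are over all probe sets. Over the 1627 probe sets of the filter the same pairs gave 0.515, 0.0449 and 0.702 in set 1 and 0.0805, 0.00201 and 0.239 in set 2. An unmatched pair, MYC replicate 2 with FLAG replicate 1, reached 0.444 over all probe sets. The correlations therefore do not settle whether the numbers carry a pairing.

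Ribosomal protein centring shifted the median of all probe sets by -0.18 in strategy 2. Changes that turned sign were otherwise mostly those of probe sets near the lowest array values. In strategy 1, quantile normalization gave let-60 192311_at -0.136, ksr-1 188070_s_at 0.00879 and sem-5 -0.00267, cyclic loess gave ksr-1 175608_at 0.00767 and sem-5 -0.0159, array medians gave ksr-1 175608_at 0.00383, and ribosomal protein centring gave ksr-2 171765_x_at -0.00244. In strategy 2, quantile normalization gave let-60 174039_at -0.0956 and mpk-1 193948_s_at -0.552, and cyclic loess gave mpk-1 193948_s_at -0.353, lip-1 0.0161, ksr-1 175608_at 0.0209 and ksr-2 171765_x_at 0.0101. Array medians gave lip-1 0.00826, ksr-1 175608_at 0.0179 and ksr-2 171765_x_at 0.018, ribosomal protein centring gave mek-2 188244_s_at -0.16 and ksr-1 188070_s_at -0.18, and array weights gave ksr-1 188070_s_at -0.00606 and ksr-2 171765_x_at 0.0176. Of the other genes, ptp-2 turned to -0.52 and -0.784 with quantile normalization and to -0.496 and -0.621 with cyclic loess, and vab-1 to -0.00597 and -0.262 in strategy 2. The causes were not tested.

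With one array left out, ksr-1 175608_at ranged from -0.061 to 0.0263 in strategy 1 and -0.0421 to 0.0169 in strategy 2, ksr-2 171765_x_at from -0.0226 to 0.0754 and -0.0634 to 0.0566, and sem-5 from -0.0321 to 0.0925 and -0.115 to 0.00403. In strategy 2 mek-2 188244_s_at ranged from -0.0401 to 0.0502 and ksr-1 188070_s_at from -0.0182 to 0.0279. Signal over background limited mek-2, lip-1, ksr-1, ksr-2 and sem-5, whose IP values lay within 0.5 of the lowest array value.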
